A study of Mus musculus with 2 samples.

Results

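The genes of cytoplasmic dynein and of the light chains that dynein complexes share were followed in fetal mouse lung lobes with and without working Foxj1. They are 10 genes (Dynlrb1, Dynlrb2, Dynll1, Dynll2, Dynlt1, Dynlt3, Dync1h1, Dync1i2, Dync1li1 and Dync2h1) of 21170 detected on the array, found by gene name or by the current symbol of the probe's transcript. All 10 were well above background in both channels. They were listed with the ratios of this array already known, among them the contrast between Dynlrb2 and Dynlrb1, so every ratio below is a description and carries no test.

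Dyneins are motors that walk towards the minus end of microtubules. Dynein-1 hauls organelles and other cargo through the cytoplasm, dynein-2 carries intraflagellar transport trains back from the ciliary tip, and the axonemal dyneins bend motile cilia. Each motor is built on heavy chains, to which intermediate and light intermediate chains bind. Dimers of the roadblock (Dynlrb), LC8 (Dynll) and Tctex (Dynlt) light chains sit on the intermediate chains and are used by more than 1 kind of dynein. In the airway, multiciliated cells hold the motile cilia, and Foxj1 is the forkhead transcription factor known to drive their assembly.

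At E16.5, 1 lung was taken from a homozygous (Foxj1 –/–) and 1 from a heterozygous (Foxj1 +/–) male of the same litter. The mice were Foxj1lacZ on a hybrid of Sv129/CD-1, and tissue outside the lobes had been dissected away. The comparison is therefore with a heterozygous lung and not a wild type lung, and both carry the allele. Labelled cRNA from 100 ng of total RNA of each lung was hybridised to the same Agilent array, homozygous in Cy5 and heterozygous in Cy3, with no dye swap. Genotype, dye and individual embryo cannot be told apart. No value here has a replicate check, since each genotype is 1 lung.

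Ratios are log2 of homozygous over heterozygous after background correction and loess. Levels are normalized log2 intensities, and each is read between the channels of its probe. A difference in level between probes is not read as one in abundance. Errors (±) are those the scanner software gave its own log ratio, converted to log2 and taken as the median of a gene's kept probes. They are the software's estimate for a spot and cover no difference between lungs. Even in bright probes they stay near 0.20, above the spread of repeated spots given below. Across the array the SD of the ratio was 0.27 between probes of a gene (7144 genes) and 0.057 between repeated spots of a probe (215 probes). Each probe of the dynein genes had 1 spot.

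Foxj1, the targeted gene, stood at a level of 7.61 in the homozygous and 9.53 in the heterozygous lung, a log2 ratio of −1.92 ± 0.30. Over 10 alternatives of processing Foxj1 ran from −2.33, with the scanner's own log ratio, to −1.92. Its only probe lies on chromosome 11 from 116146990 to 116147049 (mm8), and whether the lacZ allele removes that stretch was not settled here. Of 21170 detected genes, 398 were lower by 2-fold or more in the homozygous lung and 122 were higher by as much. Taking the scanner's log ratio instead, these counts were 1143 and 593. The source names call the tissue lung epithelium, but the lobes held other cells too. Defining markers of lung mesenchyme (6 of 6), endothelium (4 of 4), cardiac muscle (5 of 5) and leukocytes (4 of 4) were above background in both channels, as were those of lung epithelium (6 of 6), club cells (4 of 4) and ciliated cells (7 of 7).

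Dynlrb2, a roadblock light chain known mainly from testis and other tissues with motile cilia or flagella, was the only member to differ by 2-fold or more. It was 6.96-fold lower in the homozygous lung, with a log2 ratio of −2.80 ± 0.33. So 1 of 10 members was at least 2-fold lower, beside 1.88% of all detected genes, and 0 of 10 were at least 2-fold higher, beside 0.576%. With 1.5-fold in place of 2-fold the counts were again 1 and 0, against 5.87% and 2.1% of all genes. In the reported processing, whose offset understates changes of dim probes, only 11 detected genes had a lower ratio than Dynlrb2.

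Both probes of Dynlrb2 gave this picture. The first maps to an interval of 774 bases, from 119400931 to 119401704 on the plus strand of chromosome 8 (mm8), although it is 60 bases long. Its level was 10.18 in the homozygous and 13.09 in the heterozygous lung, a ratio of −2.91 ± 0.34. The scanner's processed signals behind it were 646.2 in the homozygous and 4987.2 in the heterozygous channel. The second probe, from 119401788 to 119401847, stood at 11.19 in the homozygous and 13.88 in the heterozygous lung, a ratio of −2.69 ± 0.32. Here the processed signals were 1243.1 and 8110.3, homozygous first. Both homozygous spots were well above their local backgrounds, with mean signals of 1655.7 and 3369.2 against backgrounds of 61 and 59, so the transcript remained measurable. The probes differed from each other by 0.22, far less than either differed from 0.

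Dynlrb1, the paralog of Dynlrb2 and the roadblock chain that most cells use, had nearly the same level in both lungs. Its single probe, on chromosome 2 from 154941592 to 154941651 (mm8), stood at 14.46 in the homozygous and 14.60 in the heterozygous lung. The log2 ratio was −0.14 ± 0.20, smaller than its error, and the processed signals were 13370.6 and 14145.3, homozygous first. The ratio of Dynlrb2 was lower than that of Dynlrb1 by 2.66 on the log2 scale, a 6.32-fold difference between the paralogs' ratios, with a combined scanner error of 0.39. The single probe of Dynlrb1 leaves no spread between probes to set beside this. The longest run of bases shared by a Dynlrb1 and a Dynlrb2 probe was 6, counting either strand, against a longest run of 10 over all 329 pairs of probes from different members. Probes were compared with each other and not with the paralog's transcript, so this does not show whether a probe binds the other paralog.

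**Figure D1:**
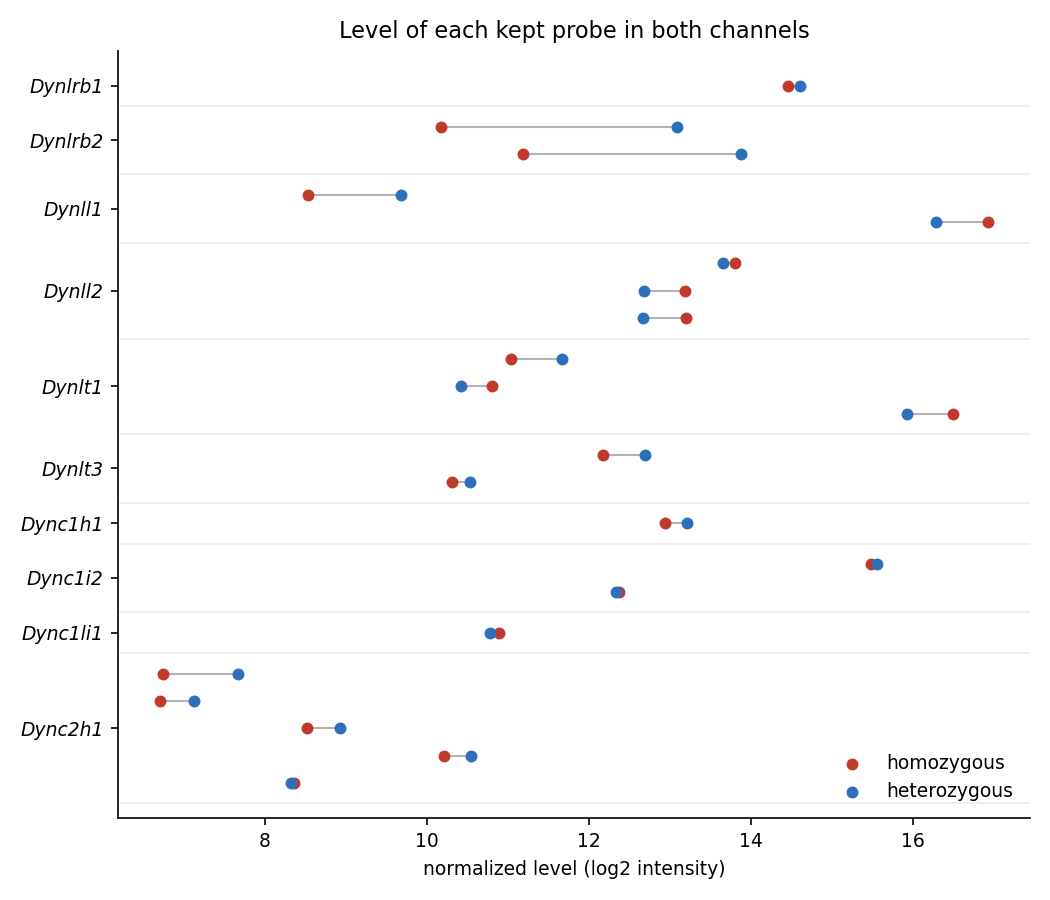
Level of each kept probe in the homozygous (red) and the heterozygous (blue) lung, as normalized log2 intensity on the horizontal axis, with probes grouped by gene down the page. The wide gaps are those of both Dynlrb2 probes, at 10.18 against 13.09 and 11.19 against 13.88, while the Dynlrb1 probe stood at 14.46 against 14.60.

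The sequences printed here are a probe of Dynlrb2 and the bases before the annotated transcript starts of both roadblock genes. For comparison a probe of the LC8 chain Dynll2, whose own ratio was 0.14, is printed too. Any part of the promoter bases in the contrast was not tested. The probe sequences are those in the scanner file, here in lower case throughout.
Dynlrb2 probe: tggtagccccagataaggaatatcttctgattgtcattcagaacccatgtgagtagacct
Dynll2 probe: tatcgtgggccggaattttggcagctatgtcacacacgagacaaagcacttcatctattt

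The promoters are RefSeq windows on GRCm38.p6, taken here as the 250 bases before the start and printed along the gene's own strand, which is the plus strand for both. Dynlrb2 has 1 entry, on chromosome 8 from 116504765 to 116505014. Dynlrb1 has 2 overlapping entries on chromosome 2, and the one shown runs from 155236358 to 155236607. Capitals mark bases that match a motif searched for.
Dynlrb2: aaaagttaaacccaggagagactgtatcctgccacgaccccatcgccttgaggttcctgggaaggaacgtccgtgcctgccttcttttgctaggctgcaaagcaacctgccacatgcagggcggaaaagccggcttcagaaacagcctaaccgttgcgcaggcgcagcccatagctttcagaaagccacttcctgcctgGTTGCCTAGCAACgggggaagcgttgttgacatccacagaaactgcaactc
Dynlrb1: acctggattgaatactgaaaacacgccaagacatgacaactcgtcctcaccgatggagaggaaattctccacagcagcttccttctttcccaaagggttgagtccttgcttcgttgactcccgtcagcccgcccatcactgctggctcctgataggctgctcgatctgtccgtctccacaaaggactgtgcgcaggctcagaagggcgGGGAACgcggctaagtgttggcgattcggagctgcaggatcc

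The windows were searched on both strands for the forkhead core TGTTTAC, for its variant TGTTTAT, for the variant with TGTTTGC as its letters, and for the short RFX core GTTNCC. The longer X-box of RFX factors was searched as GTNNCC followed after 0 to 3 bases by GGNNAC. Forkhead cores were found in neither roadblock promoter, and at least 1 of the 3 was present in 11.0% of 32851 promoter windows of the same length. That form of the X-box was also found in neither, against 3.21% of all windows. Another form, with AGNNAC as its second part, was added to the search after the sequences had been seen. It matched GTTGCCTAGCAAC in the Dynlrb2 window, from 51 to 39 bases before the start, and none of the other 9 windows of the members. Among all windows 4.37% held it. The short core GTTNCC, which overlaps this match in Dynlrb2, was also found in the printed Dynlrb1 window on the minus strand, and 39.37% of all windows held it. Of the 10 members, 8 had a promoter entry, and the only forkhead core among them was a TGTTTGC in Dynlt3, 49 to 43 bases before its start. A match describes letters only, and is not a binding site.

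Genes next to Dynlrb2 and Dynlrb1 on their chromosomes had ratios from −0.24 to 0.27. In the gene order of GRCm38.p6, the nearest detected protein-coding genes before Dynlrb2 were Maf (−0.24 ± 0.21) and Wwox (0.15 ± 0.22). Those after it were Cdyl2 (−0.02 ± 0.21) and Cmc2 (0.07 ± 0.20). For Dynlrb1 they were Itch (−0.02 ± 0.27) and Ahcy (0.27 ± 0.21) before and Map1lc3a (−0.19 ± 0.20) and Pigu (0.14 ± 0.21) after. These neighbours were chosen outside the rule for named genes.

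**Figure D2:**
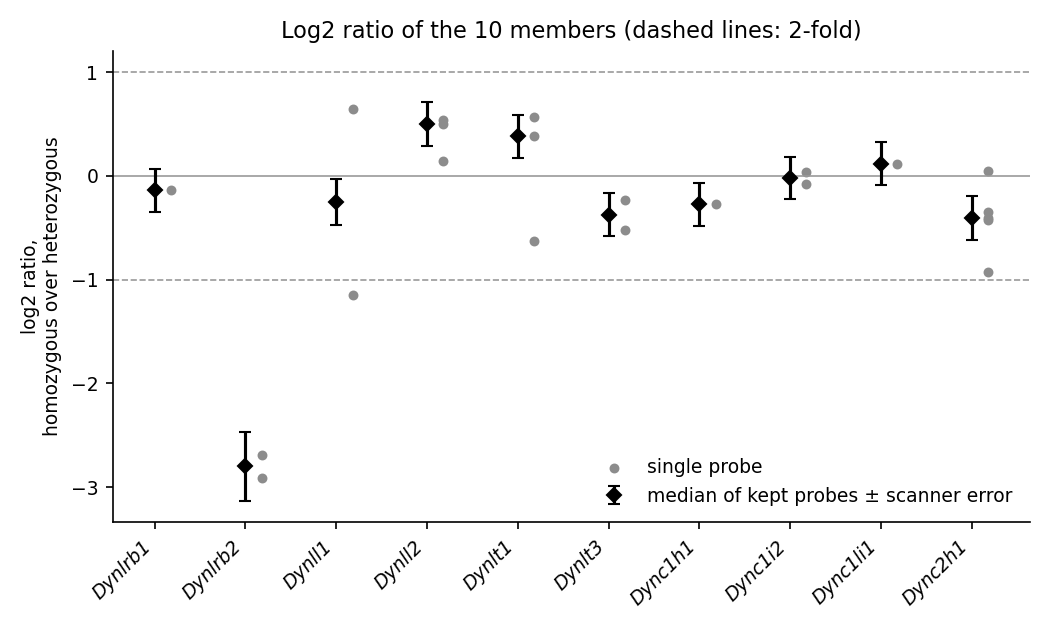
Log2 ratio of homozygous over heterozygous (vertical axis) for each of the 10 members, with the median of the kept probes as a diamond, the scanner error as bars and single probes as grey points. Dynlrb2 lies at −2.80 and the other 9 lie between −0.41 and 0.50, inside the dashed 2-fold lines.

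The other 9 members had ratios from −0.41 to 0.50 with a median of −0.14, 6 of them below 0, where all detected genes had a median of 0.00 (10679 of 21170 below 0). With median centring in place of loess, only 2 of the 9 were below 0 and their median was 0.36. The SD of 0.27 between probes of a gene is of the same order as these ratios. Of their 20 kept probes, 1 was past 2-fold, a Dynll1 probe at −1.15.

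Among the LC8 light chains, hub proteins that dimerise a large range of partners besides dynein, Dynll2 had the highest ratio of the 10 members, at 0.50 ± 0.21 or 1.41-fold higher in the homozygous lung. With each gene's brightest probe it was at 0.14, below Dynll1 (0.64) and Dynlt1 (0.56). Its 3 probes on chromosome 11 all had ratios above 0. They stood at 13.20 and 12.67, 13.19 and 12.69, and 13.81 and 13.66, homozygous before heterozygous in each pair, giving ratios of 0.54, 0.50 and 0.14. The third of these is the printed probe. Dynll1 had probes that disagreed in sign, and its median of −0.25 ± 0.22 describes neither. The probe designed on its RefSeq transcript stood at 16.93 in the homozygous and 16.29 in the heterozygous lung, a ratio of 0.64 ± 0.20. The other, designed on an expressed sequence tag, stood at 8.53 in the homozygous and 9.68 in the heterozygous lung, a ratio of −1.15 ± 0.24. These probes lie on chromosome 5, from 115559534 to 115559593 and from 115558343 to 115558402 (mm8). Very bright genes had raised ratios in general. The 233 genes at a mean log2 intensity of 16 or more had a median of 0.52, and the scanner's own log ratio put the bright probe at 0.18.

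Tctex light chains, which also bind the intermediate chains and link them to cargo, had ratios of opposite sign, neither gene reaching 1.5-fold. Dynlt1 was at 0.38 ± 0.21 and Dynlt3 at −0.37 ± 0.21. The 3 probes of Dynlt1 ranged from −0.62 to 0.56. The brightest of them, at 16.49 in the homozygous and 15.93 in the heterozygous lung, belongs to the bright range described for Dynll1, and the scanner's own log ratio put it at 0.22 in place of 0.56. The gene is now annotated as the near-identical copies Dynlt1a, Dynlt1b, Dynlt1c and Dynlt1f. The bright probe's transcript is that of Dynlt1b, and which copies the other probes bind is uncertain. Both probes of Dynlt3, on the X chromosome, were lower in the homozygous lung, at 12.18 against 12.69 in the heterozygous lung (−0.52 ± 0.21) and at 10.31 against 10.54 (−0.23 ± 0.21).

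None of the chains specific to dynein-1 reached 1.5-fold. Dync1h1, its heavy chain and motor, had 1 kept probe, at 12.94 in the homozygous and 13.21 in the heterozygous lung, a ratio of −0.27 ± 0.20. The other 2 of its probes were not above background in either channel and are not counted. Dync1i2, an intermediate chain that carries the light chains, had probes at −0.07 and 0.03 and a median of −0.02 ± 0.20. The light intermediate chain Dync1li1, which binds cargo adaptors, stood at 10.90 in the homozygous and 10.78 in the heterozygous lung, a ratio of 0.12 ± 0.20. Outside the 10, Dync1i1, an intermediate chain best known from neurons, was at 0.06 ± 0.24 and the light intermediate chain Dync1li2 at 0.23 ± 0.21. These 5 chains had a median of 0.06, with 2 below 0. With median centring their median was 0.34, with 1 below 0.

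Dync2h1, the heavy chain of dynein-2, was at −0.41 ± 0.21, the lowest of the members after Dynlrb2 in the reported processing. Without a filter on dim probes it stood at −0.20, above Dynlt3 (−0.37). Dynlt3 was also the lower one with each gene's brightest probe (−0.52 against −0.34 for Dync2h1), and Dynll1 was with the scanner's own log ratio (−0.53 against −0.39). Of its 9 probes, 5 were kept. Their ratios were −0.93, −0.43, −0.41, −0.34 and 0.05, so 4 of the 5 lay below 0. The probe at −0.93 had a level of 6.75 in the homozygous and 7.67 in the heterozygous lung, and the one at −0.34 stood at 10.21 in the homozygous and 10.55 in the heterozygous lung. The other dynein-2 chains also had ratios below 0. Dynlt2b, a Tctex-type light chain of dynein-2, stood at 12.43 in the homozygous and 13.30 in the heterozygous lung, 1.83-fold lower at −0.87 ± 0.22. That value rests on 1 probe, and median centring put it at −0.52. The intermediate chains Dync2i1 and Dync2i2 were at −0.35 ± 0.22 and −0.08 ± 0.20, and the light intermediate chain Dync2li1 at −0.18 ± 0.20. All 5 dynein-2 chains were thus below 0, with a median of −0.35 and a range of −0.87 to −0.08, beside 10679 of 21170 detected genes below 0. Dync2i2 and Dync2li1 lay within their errors of 0, and the 3 probes of Dync2i1 ran from −0.68 to 0.01. With median centring 3 of the 5 were below 0, and with each gene's brightest probe 4 of 5. None reached 2-fold, and the chains were grouped by complex with their values known.

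**Figure D3:**
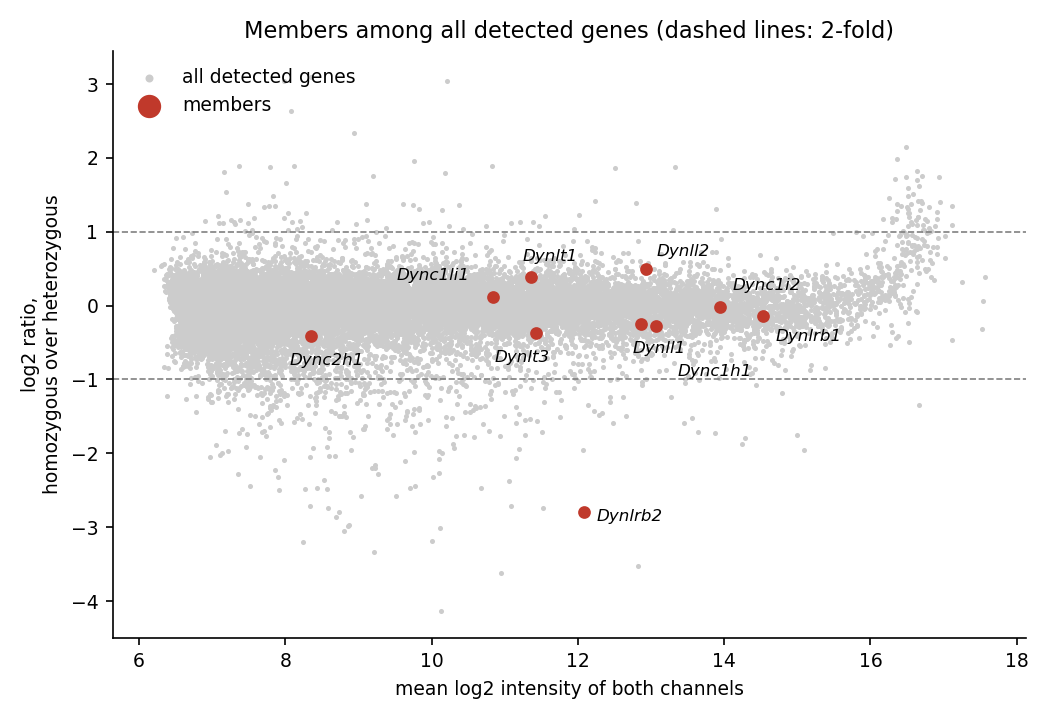
Log2 ratio of homozygous over heterozygous (vertical axis) against mean log2 intensity of both channels (horizontal axis) for all detected genes in grey and the 10 members in red. Dynlrb2, at −2.80, lies apart from the other members, which lie within the band of most genes, and ratios bend upwards at the bright end, where the 233 genes at 16 or more had a median of 0.52.

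Other genes of the pathway were taken from lists written with earlier results of this array known, and each list is given by counts and median. The list of other cytoplasmic dynein subunits has 9 genes on the array under their own names, all 9 detected, beside the Dynlt1 copies described above. None of the 9 reached 2-fold, and their median was −0.08. Dynlt2b was lowest, followed by the Tctex-type chain Dynlt4 (−0.54 ± 0.40, its level 6.48 in the homozygous and 7.02 in the heterozygous lung). Dynlt4 was past 2-fold under 4 alternatives, at −1.01 to −1.41. With an offset of 0 and with the scanner's own log ratio, 1 of the 9 was also at least 2-fold higher. Dync1li2 and Dynlt5 were highest, and Dynlt5 was detected in the homozygous channel alone, at 6.59 against 6.19 in the heterozygous, too close to the detection limit for a minimum fold.

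Dynactin, the cofactor that lets dynein-1 walk processively with cargo, was detected in all 12 subunits and had 0 genes past 2-fold. Ratios ran from −0.16 for the actin-related Actr10 and −0.13 for Dctn3 to 0.24 for both Dctn6 and the filament protein Actr1a, with a median of 0.07. The 3 probes of Dctn5 ran from −1.23 to 0.04 and the 3 of Dctn4 from −0.68 to 0.23. With the mean of probes in place of the median, the lowest dynactin gene was at −0.44. With median centring all 12 were above 0. The 18 regulators and cargo adaptors of dynein had a median of 0.00 and again 0 at 2-fold. With the scanner's own log ratio 2 of them were at least 2-fold higher, and with an offset of 0 it was 1. The adaptor Bicdl1 (−0.25 ± 0.25) and the centrosomal Nin (−0.23 ± 0.21) were lowest. Mapk8ip3, a scaffold that links kinesin and dynein to cargo, was highest at 0.71 ± 0.26, but its probes stood at 1.29 and 0.12. The adaptor Bicd1 followed, detected in the homozygous channel alone and at least 1.51-fold higher there.

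Partners of LC8 and roadblock-fold proteins of the Ragulator complex, 11 genes in all, had a median of −0.08 and 0 at 2-fold. They ran from Rasgrp3 (−0.44 ± 0.21) and Kank1 (−0.21 ± 0.21) to Bcl2l11 (0.09 ± 0.22) and Trp53bp1 (0.30 ± 0.27). Atmin, the transcription factor known to drive Dynll1, was at −0.06 ± 0.21. The 24 genes of intraflagellar transport trains and their kinesin had a median of −0.07 and 0 at 2-fold. Ift27 (−0.45 ± 0.21) and Ift22 (−0.39 ± 0.21) were lowest, Ttc21b (0.44 ± 0.24) and Ift52 (0.15 ± 0.21) highest.

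The axonemal dynein chains, detected for 17 of 23 listed genes, had a lower median of −0.38, with 15 of 17 below 0 and 2 at least 2-fold lower. Of all 21170 detected genes, 10679 were below 0 and 1.88% at least 2-fold lower. Dnah6 (−0.997 ± 0.375) was above background in the heterozygous channel only. Without a filter on dim probes the median of the 17 was −0.17. The scanner's own log ratio put 7 of them past 2-fold. Dnali1, a light intermediate chain of inner arms, was lowest at −2.23 ± 0.37, and the heavy chain Dnah8 stood at −1.28 ± 0.24. Dnah7b (0.07 ± 0.32) and Dnah10 (0.06 ± 0.58, above background in the homozygous channel only) were highest. Dynlrb2, at −2.80, had a lower ratio than each of these 17, but Dnali1 was the lower one with the scanner's own log ratio (−3.25 against −2.83) and with an offset of 0 (−2.88 against −2.83).

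**Figure D4:**
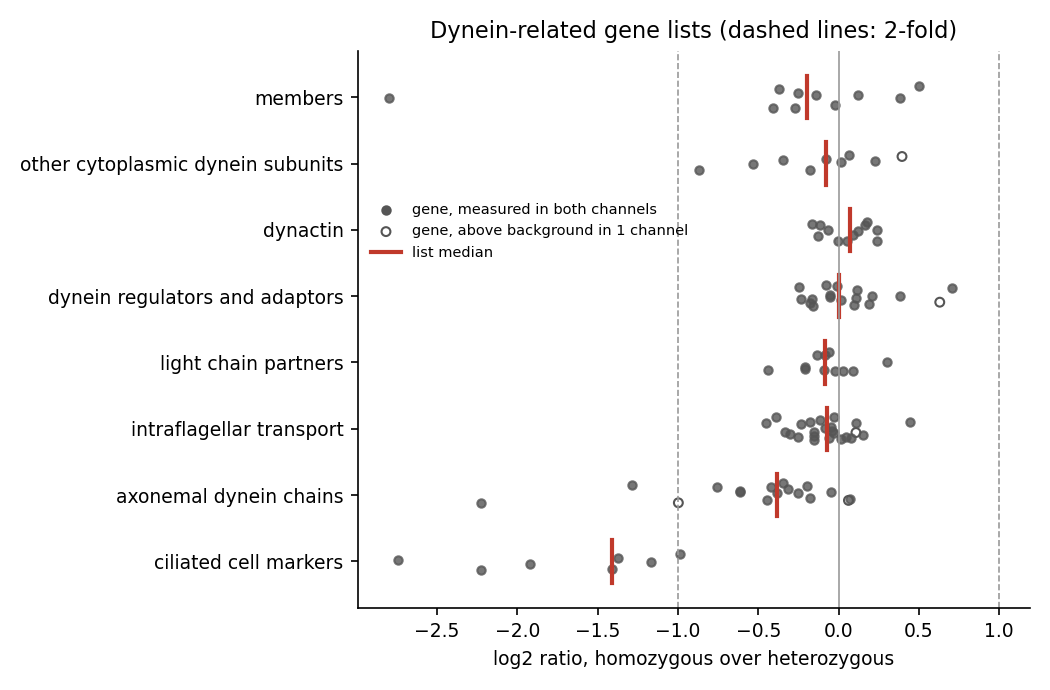
Log2 ratio of homozygous over heterozygous (horizontal axis) for every detected gene of 8 lists, with list medians as red bars and open circles for genes above background in 1 channel. Dynactin (median 0.07), dynein regulators (0.00), light chain partners (−0.08) and intraflagellar transport (−0.07) cluster around 0, whereas axonemal dyneins (−0.38) and ciliated cell markers (−1.41) lie lower and Dynlrb2 stands alone among the members.

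Markers of ciliated cells, among them Foxj1 itself and Dnali1, moved with Dynlrb2. All 7 had ratios below 0, from Cfap126 at −2.74 to Ccdc39 at −0.99, and 6 were at least 2-fold lower. Their summed level, on the linear scale, was 3403 in the homozygous and 13786 in the heterozygous lung, and none was at background. Dnali1 was the dimmest of them in the homozygous lung, at 6.74, where the lowest level above background was 6.32. In RNA of whole lobes, fewer ciliated cells and less RNA per ciliated cell cannot be told apart. Markers of other cells moved the same way. All 4 club cell markers were at least 2-fold lower, with a summed level of 73309 in the homozygous and 193394 in the heterozygous lung. So were 4 of 5 cardiac muscle markers (2966 and 28092, homozygous first) and 1 of 3 detected erythroid markers (8981 and 28600). Each sum is weighted towards its brightest marker. In ciliated cells that was Cfap126 (−2.74), where the median ratio of the list was −1.41. It was Scgb3a2 (−1.35) in club cells, Myl7 (−3.52) in cardiac muscle and Alas2 (−1.73) in erythroid cells. The least changed cardiac and erythroid markers were Nppa (−0.24) and Epb42 (−0.15). The summed levels of lung epithelium were 235697 in the homozygous and 194971 in the heterozygous lung, and those of mesenchyme (9554 and 8643), endothelium (19129 and 23257) and leukocytes (3043 and 2658) also differed by less than 1.5-fold, with 0 markers of these 4 lists at 2-fold. The part of these cell types in the ratio of Dynlrb2 was not tested.

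The genes nearest to Dynlrb2 in ratio on this array were not of a single kind. Counting genes detected in both channels whose probes shared a sign, they were Csrp3 (−2.79), Tnni3 (−2.74), Prdm16 (−2.86) and Cfap126 (−2.74). Csrp3, the muscle LIM protein, and Tnni3, the cardiac troponin I, belong to striated muscle. Prdm16 is a transcriptional regulator, and Cfap126 belongs to motile cilia and the ciliated cell list. Likeness here is the difference in log2 ratio on 1 array, at most 0.06 for these 4 genes, and it says nothing of shared control. The scanner errors of these genes, 0.33 to 0.39, are larger than that difference, and the probes of Tnni3 stood at −3.16 and −2.33. Csrp3 (7.34), Tnni3 (7.21) and Prdm16 (7.27) were dim in the homozygous lung, where Dynlrb2 stood at 10.69. The offset understates changes of dim probes, and the nearest genes were taken in the reported processing only.

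**Figure D5:**
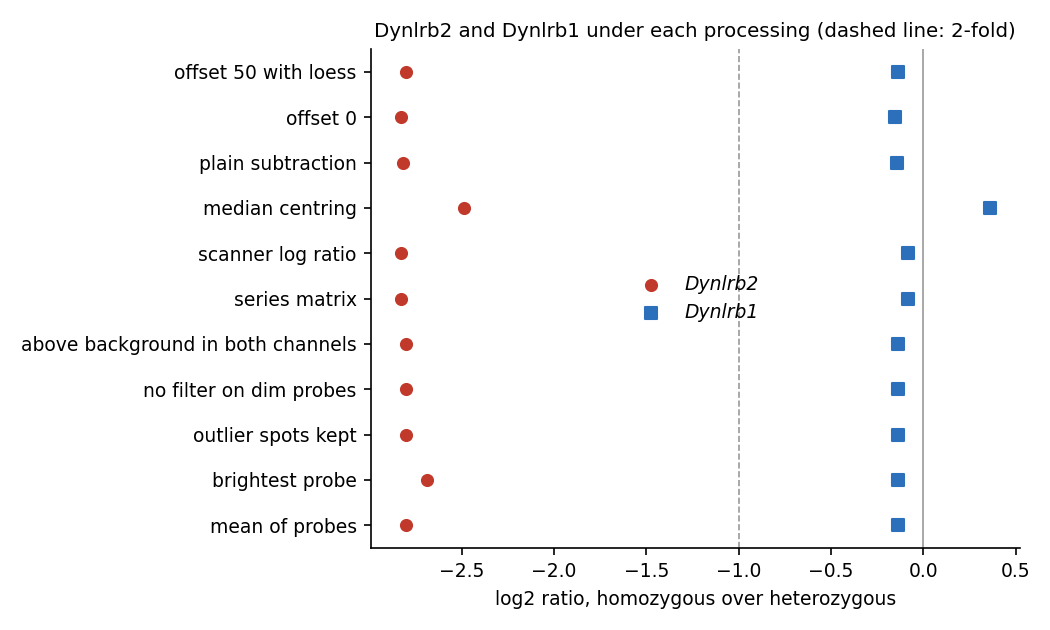
Log2 ratio of homozygous over heterozygous (horizontal axis) for Dynlrb2 (circles) and Dynlrb1 (squares) under the reported processing and 10 alternatives, 1 per row. Dynlrb2 stays between −2.83 and −2.49 and Dynlrb1 between −0.15 and 0.36.

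Over 10 alternatives of processing the ratio of Dynlrb2 ran from −2.83 to −2.49, and its difference from Dynlrb1 ran from −2.85 to −2.55. Of these alternatives, 4 could not move Dynlrb2, since both its probes were above background in both channels with no outlier flag and the mean of 2 probes is their median. The series matrix gave the same ratio as the scanner software. Dynlrb1 changed sign with median centring, at 0.36, and lay between −0.15 and −0.08 under the other alternatives. Those that changed the filters or the summary over probes could not move it. Its single probe was above background in both channels with no outlier flag.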

How the data were processed

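RNA of 2 lungs was measured on 1 array of 2 channels. The 2 deposited scanner files are identical and count once. The authors deposited spot brightness and local background as intensity values, processed with Agilent Feature Extraction 9.5.3.1 per the submitters' processing notes. Per the file headers, the scanner log ratio is log10 of red over green processed signals after LOWESS dye normalization. Set against the scanner values, the deposited series matrix is the processed intensity of the channel with that sample's RNA, multiplied by 1.68 and floored at 15. Medians of its columns were 138.8 (homozygous) and 139.8 (heterozygous), and the reason for the factor is unknown.

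Mean signals were corrected by normexp with an offset of 50 and normalized by loess with control spots at weight 0 (limma 3.58.1, R 4.3.3, Python 3.11.15, pandas 2.3.3), which was tested on simulated data. The test asked only for the right sign of changed probes and a mean near 0 for the rest. Its dye curve was a straight line in log2 intensity, so it could not show the raised ratios of very bright genes. The offset understates changes of dim probes. Controls and 169 spots with outlier flags were removed, and 0 spots were saturated. The homozygous channel was well above background at 75.6% and the heterozygous at 69.0% of 43379 transcript spots. Probes were kept where more than a 0.5 share of their spots passed background in either channel. Gene values are medians of kept probes. Of 28 probes of the members 22 were kept. For a gene detected in 1 channel the fold is a bound against the dim channel's own level or its lowest detected level, whichever is higher, and is open to dye bias.

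Of 41174 probes, 24354 were named through transcript accessions in a RefSeq gene table of GRCm38.p6, 6296 by symbol, 2426 by synonym and 28 by membership, and 8070 kept the file's name. No test was run with 1 sample per group, and calls are by size, a log2 ratio of −1 or 1. The rule for named genes took all members, Foxj1, the 2 lowest and 2 highest of each dynein list with any gene past 2-fold, and the 4 genes nearest to Dynlrb2. Members, lists and rules were chosen with earlier results of these data known. Alternatives changed the background correction, normalization, source of values, filters and the summary over probes.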

Additional observations from a re-analysis of the deposited data

How the results depend on the processing

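Over 10 alternatives of processing, Dynlrb2 and its difference from Dynlrb1 moved by less than their scanner errors, and the counts of members past 2-fold stayed at 1 lower and 0 higher. The 1.5-fold counts, also 1 and 0, were made for the reported processing. Median centring took Dynll2 and Dynlt1, and the brightest probe Dynll1, past 1.5-fold higher. Dynlrb1 moved by more than its error with median centring, a setting without loess, to 0.361, and the cause was not tested. The same centring moved Dynll2 to 0.85, Dynlt1 to 0.63 and Dynlt3 to −0.09, and turned Dync1i2 (0.44), Dync1h1 (0.09) and Dynll1 (0.15) above 0. Dynll1 ranged from −0.53 with the scanner's ratio to 0.64 with its brightest probe. Axonemal dyneins at least 2-fold lower numbered 7 of 17 with the scanner's ratio and also with the series matrix, 4 with an offset of 0, median centring or the brightest probe, and 1 without a filter on dim probes. Genes of the whole array at least 2-fold lower and higher numbered 773 and 221 with an offset of 0, 797 and 272 with median centring, 1143 and 593 with the scanner's ratio, and 1139 and 457 with the series matrix. Signal over background limits the dim probes of Dync2h1, Dynlt4 and Dynlt5. No paired analysis was possible because there is 1 sample per genotype.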
